A study of Mus musculus with 6 samples.

Results

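The interferon system was followed through 40 genes, 36 interferon-stimulated genes and the 4 subunits of the interferon receptors, compared between C57BL/6 mouse cells labelled wild type (3 libraries) and cells labelled null for sphingosine kinase 2 (SphK2, 3 libraries). The genes were chosen by name, and all 40 were found among the 46983 genes counted. Both groups came from the mouse embryo at 14 days and were at passage 16, and no treatment is recorded for either. The design text calls them embryonic fibroblasts, and the study's title places SphK2 in the stromal fibroblasts of breast tumours. Sphingosine kinase 2 makes sphingosine 1-phosphate, a signalling lipid. Nothing in the labels tells whether libraries of 1 group had separate embryos, lines or cultures as their source. The p-values therefore reflect the spread of these particular libraries, and that spread may be technical.

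Type I interferons bind a receptor made of IFNAR1 and IFNAR2, whose kinases JAK1 and TYK2 phosphorylate STAT2. It then acts with IRF9 in a complex that binds interferon-stimulated response elements (ISREs) in promoters. Interferon gamma acts through IFNGR1 and IFNGR2 and on gamma-activated sites (GAS) in promoters. The proteins then made block viral entry, RNA and translation, and fibroblasts are known to hold a low constant level of many of them without infection, through interferon beta that they make themselves.

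Because the group and the library both matter below, the state of the data is given first. Libraries held 15598566 to 23681718 counted reads, so 3 counts correspond to 0.127 to 0.192 CPM, the counts scaled to library size. The range of chi-square per degree of freedom between 2 libraries of a group was 1.49 to 2.17, so no library repeated another. Sphk2 itself went against the label: it was counted 654, 418 and 503 times in the libraries labelled wild type and 964, 883 and 921 times in those labelled null (log2 fold change 0.87, SE 0.051; edgeR adjusted p = 4.48e-64). Of its exonic bases, 20.8% also lie in exons of neighbouring genes on the opposite strand, and reads there are left uncounted. The labels do not say which part of Sphk2 was removed, so its total count does not test the deletion. The groups are therefore called wild-type-labelled and null-labelled throughout. Markers of the labelled cell type, which is the same for both groups, also differed between them. All 12 fibroblast and mesenchymal markers were lower in the null-labelled libraries (background 41.1% of the 15199 genes tested), with a summed level of 14960 to 15410 CPM against 3452 to 3489 CPM. Thy1 had 0 counts in all 3 null-labelled libraries, and Dcn and Lum were also under 1 CPM there. Col3a1, Col1a2, Fn1 and Col1a1 fell from 3059, 2605, 2036 and 623 CPM to 8.86, 7.39, 3.37 and 1.68 CPM on average. Vim gave most of the null-labelled sum, at 3211 CPM on average. Pdgfra, Prrx1 and Twist1 were lower but still at 89.4, 59.7 and 59.5 CPM in that group. In bulk RNA, fewer cells of a type and less RNA per cell cannot be told apart. The part that this difference in markers has in the results below was not tested.

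In the null-labelled libraries 37 of the 40 genes were lower and 3 were higher, at an adjusted p under 0.05 in edgeR's quasi-likelihood test over all genes. The background is wide: 41.1% of all genes tested were lower and 38.1% were higher by the same rule. The median log2 fold change of the 40 genes was -2.25, beside -0.02 for all genes tested, and it was the same with Oas2, which had 0 counts in 1 group, set to its bound. A fall of over 4-fold was called for 22 of the 40, beside 10.7% of all genes tested. The groups did not overlap in 36 genes that were lower in every null-labelled library (background 41.4%) and in 3 that were higher in every one (background 38.6%). The exception was Parp12. All 40 passed the filter on low counts, since their mean under the wild-type label was 3.42 CPM or more, whereas 12 were under 1 CPM in the null-labelled group. Summed over the 36 interferon-stimulated genes, the level was 1374, 1434 and 1123 CPM in wild-type-labelled libraries 1 to 3 and 456, 469 and 456 CPM in the null-labelled ones.

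**Figure D1:**
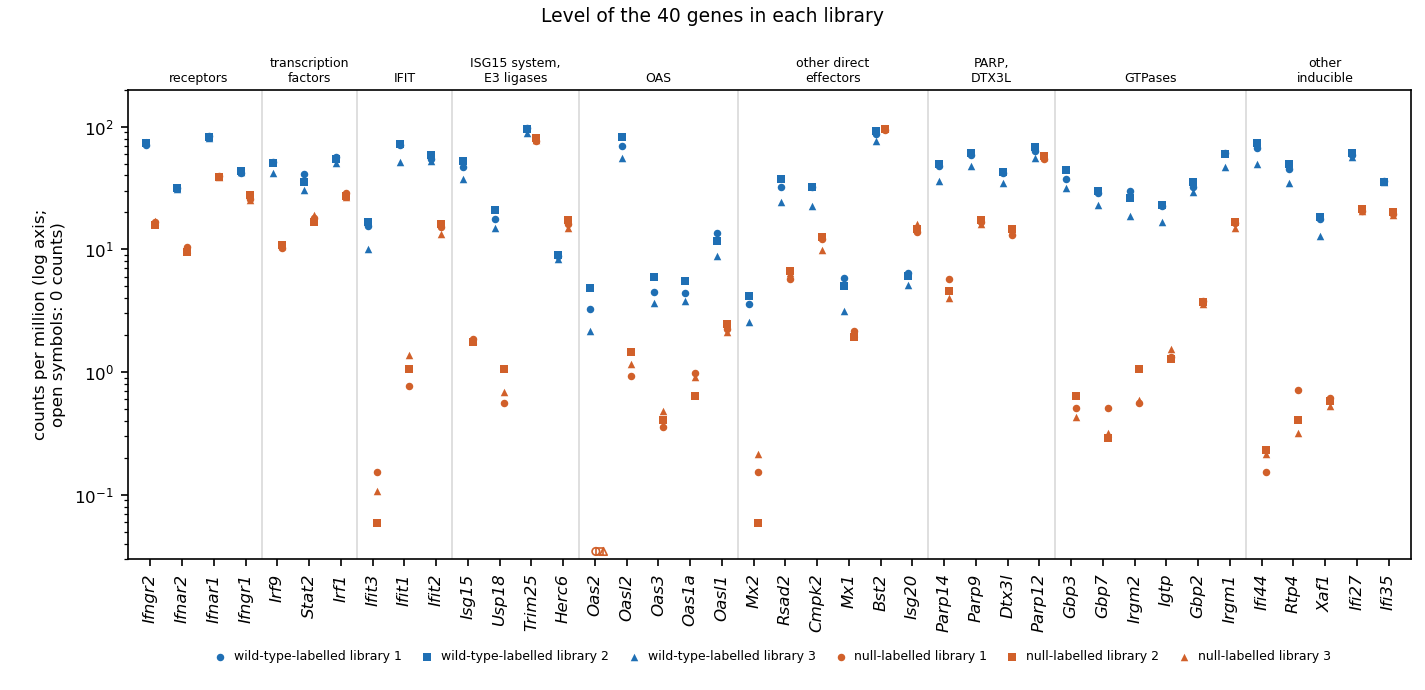
CPM (log axis) of the 40 genes in each of the 6 libraries, ordered by role and, within a role, by log2 fold change; open symbols mark 0 counts. Blue symbols of wild-type-labelled libraries lie above the orange null-labelled ones in 36 genes, while Herc6, Bst2 and Isg20 show the reverse and the groups overlap for Parp12.

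The promoters show the element that many of these genes share, and 5 are printed here: Isg15, Ifit1, Gbp3 and Igtp, which were lower, and Bst2, which was higher. Each line gives the 150 bases just before the annotated start on the gene's own strand, from RefSeq on GRCm38.p6, with the ISRE core in capitals. The core searched was GAAANNGAAA, or TTTCNNTTTC on the other strand. The Isg15 stretch lies at chr4:156200819-156200968 (minus strand), Ifit1 at chr19:34640739-34640888 (plus), Gbp3 at chr3:142559894-142560043 (plus), Igtp at chr11:58199406-58199555 (plus) and Bst2 at chr8:71537473-71537622 (minus).
Isg15: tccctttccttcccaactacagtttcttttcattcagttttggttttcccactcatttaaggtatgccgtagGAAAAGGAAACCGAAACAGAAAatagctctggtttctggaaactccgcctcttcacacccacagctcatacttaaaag
Ifit1: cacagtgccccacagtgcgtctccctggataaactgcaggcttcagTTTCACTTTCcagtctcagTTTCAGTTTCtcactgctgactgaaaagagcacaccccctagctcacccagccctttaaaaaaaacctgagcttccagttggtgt
Gbp3: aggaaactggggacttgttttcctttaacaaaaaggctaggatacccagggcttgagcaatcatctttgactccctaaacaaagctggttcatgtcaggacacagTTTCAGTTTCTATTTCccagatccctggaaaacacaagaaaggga
Igtp: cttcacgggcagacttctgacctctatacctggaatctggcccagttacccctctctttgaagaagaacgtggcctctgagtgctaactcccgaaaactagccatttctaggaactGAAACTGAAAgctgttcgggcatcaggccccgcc
Bst2: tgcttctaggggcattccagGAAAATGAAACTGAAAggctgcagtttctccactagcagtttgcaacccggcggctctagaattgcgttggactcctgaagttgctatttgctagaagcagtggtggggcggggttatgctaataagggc
Isg15 held 3 overlapping matches, Ifit1 a pair of separate ones, Gbp3 and Bst2 2 overlapping matches each, and Igtp 1. The RefSeq starts lie 0 to 35 bases from the gene starts used for counting in these 5 genes.

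A RefSeq promoter window, from 250 bases before to 50 after the start, was found for 32 of the 40 genes. An ISRE core was present in 14 of the 32 (43.8%), beside 3.63% of the 10240 tested genes with a window and 3.99% of all 27025 genes with one. Among the other interferon-stimulated genes on a list of 88, 30 of the 73 with a window had it (41.1%). The GAS pattern, TTCNNNGAA, which reads the same on both strands, was present in 11 of the 32 (34.4%), beside 8.13% of tested genes and 9.55% of all. Among the other interferon-stimulated genes, 7 of the 73 with a window had it (9.59%), near the share of all genes. In Bst2 a GAS match overlaps the first ISRE match. The 14 genes with an ISRE core had a median log2 fold change of -3.68, 13 being lower and 1, Bst2, higher. The 18 with a window and no core had a median of -1.42, with 16 lower and 2 higher. Ifi44, which fell most among genes with counts in both groups, had no core in its window. Oas2, Usp18, Mx1, Mx2, Rtp4, Ifi27, Parp9 and Parp14 were not matched.

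**Figure D2:**
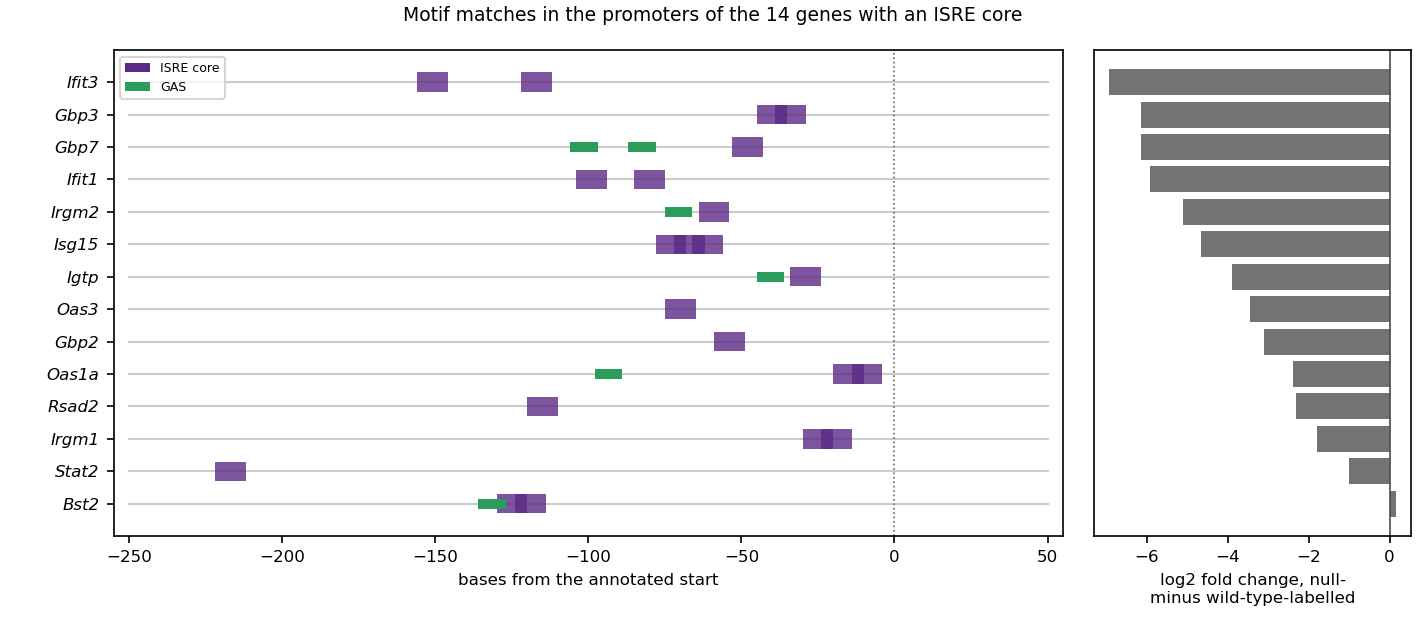
Positions of ISRE cores (purple) and GAS matches (green) from 250 bases before to 50 after the annotated start in the 14 genes with a core, beside the log2 fold change of each gene. All cores lie before the start, their first bases between 222 bases (Stat2) and 14 bases (Oas1a) ahead of it, and Bst2 is the 1 gene of the 14 that was higher.

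All 4 receptor subunits were lower in the null-labelled libraries, by 1.62-fold to 4.44-fold, and they were among the most even of the 40 genes within the wild-type-labelled group. Ifnar1 stood at 83.8, 82.0 and 80.1 CPM in wild-type-labelled libraries 1 to 3 and at 39.96, 38.7 and 39.2 CPM in the null-labelled ones (log2 fold change -1.06, SE 0.044). Ifnar2, the subunit that binds type I interferon most tightly, was at 31.6, 31.6 and 31.2 CPM against 10.5, 9.46 and 10.1 CPM (-1.65, SE 0.071). Ifngr2, the signalling chain for interferon gamma, fell furthest, from 71.1, 73.2 and 74.5 CPM to 16.6, 15.8 and 16.9 CPM (-2.15, SE 0.053). Ifngr1, the chain that binds interferon gamma, was at 41.6, 43.2 and 42.9 CPM against 25.6, 27.6 and 25.4 CPM (-0.70, SE 0.054). No null-labelled library reached the lowest wild-type-labelled one for any of the 4, and the coefficient of variation (CV) over the 3 wild-type-labelled libraries was 0.621% to 2.38%, below the 2.56% to 4.13% that counting alone gives.

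Ifnar2, Ifnar1 and Ifngr2 lie together within 192.4 kilobases of chromosome 16 (91372783 to 91565169 on GRCm38). Il10rb, the interleukin-10 receptor chain that also serves interferon lambda, lies on the pathway list and fell as well (13.4 against 7.02 CPM, log2 fold change -0.92). Chromosome 16 as a whole was low in the null-labelled libraries: 311 of its 443 tested genes fell, 60 rose, and their median log2 fold change of -0.46 was the lowest of 20 chromosomes. All 9 of the listed genes on it were lower, with a median of -1.74. At the other end, the 3 genes that were higher lie on chromosomes 8 (Bst2), 6 (Herc6) and 7 (Isg20), whose medians of 0.64, 0.30 and 0.18 were the 3 highest. Usp18 and Parp12 also lie on chromosome 6 and were lower. This pattern over chromosomes was seen after the values were known, and its part in the results was not tested.

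Transcription factors of the pathway were lower, all 3 of them, by 1.94-fold to 4.56-fold. Irf9, the DNA-binding subunit of the complex at ISREs, fell from 51.7, 50.5 and 41.9 CPM to 10.3, 10.8 and 10.6 CPM (log2 fold change -2.19, SE 0.064). Stat2 was at 41.5, 35.5 and 30.3 CPM against 17.9, 16.7 and 19.0 CPM (-1.01, SE 0.065). Irf1, a factor strongly induced by interferon gamma, was at 56.0, 54.7 and 50.2 CPM against 29.0, 27.2 and 26.8 CPM (-0.96, SE 0.050). Groups did not overlap for any of the 3, and wild-type-labelled library 3 was the lowest of its group for each.

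The IFIT genes, whose proteins bind viral RNA that lacks host cap marks, all fell, Ifit2 less than the others. Ifit1 was at 71.5, 71.8 and 51.6 CPM in the 3 wild-type-labelled libraries and at 0.769, 1.05 and 1.39 CPM in the null-labelled ones, a 60.8-fold lower mean (log2 fold change -5.92, SE 0.35; edgeR adjusted p = 1.16e-04). Ifit3 was counted 362, 255 and 192 times against 3, 1 and 2 times (log2 fold change -6.94, SE 0.24). Ifit2 kept 14.9 CPM in the null-labelled group, from 54.5, 59.2 and 52.1 CPM (-1.89, SE 0.057). The 3 genes lie within 99.3 kilobases of chromosome 19 and carry unequal falls at neighbouring positions. Ifit3 shares 50.8% of its 51-base stretches with Ifit3b, so its count is uncertain; Ifit3b had 238 reads in the wild-type-labelled group and 0 in the other, at least 76.3-fold lower against a floor of 3 counts over the group.

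In the ISG15 system, in which the ubiquitin-like protein ISG15 is joined to other proteins, the modifier and its protease fell far, while 1 ligase fell little and another was higher. Isg15 was at 47.3, 52.6 and 37.2 CPM against 1.84, 1.75 and 1.81 CPM, a 25.3-fold lower mean (log2 fold change -4.65, SE 0.14). Usp18, which removes ISG15 and also restrains IFNAR2 signalling, went from 17.6, 20.9 and 15.0 CPM to 0.564, 1.05 and 0.693 CPM (-4.53, SE 0.15). Herc6, the mouse ligase that attaches ISG15, was higher, with 8.78, 8.99 and 8.38 CPM against 16.0, 17.5 and 14.9 CPM (0.89, SE 0.087; edgeR adjusted p = 3.77e-24). Trim25, a ligase that activates the RNA sensor RIG-I, differed by a log2 fold change of only -0.27 (94.3 ± 4.2 against 78.5 ± 1.8 CPM, SD, n = 3). Of the exonic bases of Herc6, 13.7% are shared with a same-strand gene model, and reads there are left uncounted.

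All 5 OAS-family genes fell; OAS enzymes make the oligoadenylates that switch on RNase L, and the Oasl genes encode OAS-like proteins. Oasl2 was at 70.0, 82.5 and 55.5 CPM against 0.922, 1.46 and 1.17 CPM (58.5-fold lower; log2 fold change -5.87, SE 0.36). Oas3 was at 4.47, 5.97 and 3.67 CPM against 0.359, 0.409 and 0.480 CPM (-3.46, SE 0.24). Oas1a, of whose 51-base stretches 57.0% are shared with Oas1g, was at 4.39, 5.51 and 3.77 CPM against 0.973, 0.642 and 0.906 CPM (-2.40, SE 0.21). Oas2 was counted 76, 74 and 41 times under the wild-type label and 0 times in each null-labelled library, at least 61.2-fold lower against a floor of 3 counts over the group. Oasl1 had 11.4 against 2.28 CPM on average (-2.33, SE 0.13). No null-labelled library reached the lowest wild-type-labelled one for any of the 5.

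The other direct effectors split, with 4 lower and 2 higher. Rsad2, the radical enzyme viperin, was at 32.2, 37.3 and 24.3 CPM against 5.69, 6.60 and 6.45 CPM (log2 fold change -2.32, SE 0.19). Cmpk2, the gene of a nucleotide kinase next to it on chromosome 12, was at 32.4, 32.5 and 22.6 CPM against 12.0, 12.5 and 9.97 CPM (-1.34, SE 0.18). The dynamin-like GTPases differed in extent, Mx1 with 4.68 against 2.05 CPM on average (-1.20) and Mx2 with 3.44 against 0.142 CPM (-4.50). Isg20, an exonuclease, was higher: 6.37, 6.04 and 5.08 CPM against 13.9, 14.7 and 16.0 CPM (1.34, SE 0.097; edgeR adjusted p = 5.75e-43).

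Bst2, the tether that holds budding virus on the cell surface, moved little, with 87.6, 92.8 and 76.1 CPM against 94.2, 95.7 and 97.4 CPM (log2 fold change 0.17, SE 0.036; edgeR adjusted p = 7.36e-06). Its null-labelled libraries all lay above the wild-type-labelled ones, but the call was lost with DESeq2 (adjusted p = 0.0852) and without null-labelled library 3 (edgeR adjusted p = 0.093). Per kilobase of exon, Bst2 was the highest of the 40 genes in both groups, at 112 CPM per kilobase (wild-type-labelled) and 125 (null-labelled). Next in the wild-type-labelled group came Isg15 at 60.4, Ifi27 at 40.2, Rtp4 at 27.4 and Ifit1 at 24.5 CPM per kilobase. In the null-labelled group the order changed to Ifi27 at 14.1, Parp12 at 14.1, Trim25 at 13.7 and Ifi35 at 11.4 CPM per kilobase, and Isg15 dropped from the second to the eighteenth place. Bst2 held 5.55% of the 40 genes' summed CPM in the wild-type-labelled group and 17.3% in the null-labelled group.

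Parp9, Parp12, Parp14 and Dtx3l belong to the ADP-ribosylation branch of the response, and PARP9 and DTX3L form a complex. Parp14 was at 47.7, 49.3 and 36.3 CPM against 5.74, 4.56 and 3.998 CPM (log2 fold change -3.21, SE 0.15). Parp9 was at 58.8, 61.0 and 47.3 CPM against 16.6, 17.4 and 16.0 CPM (-1.74, SE 0.057), and its partner Dtx3l at 41.5, 42.5 and 34.6 CPM against 13.1, 14.7 and 14.1 CPM (-1.50, SE 0.063). These 3 lie within 139.7 kilobases of chromosome 16. Parp9 and Dtx3l are read on opposite strands and share 458 exonic bases, which no strand option separated. Parp12 was at 63.8, 68.4 and 55.4 CPM against 54.8, 57.5 and 56.4 CPM (-0.15, SE 0.043; edgeR adjusted p = 0.000674). Wild-type-labelled library 3 lay inside the null-labelled range, and the call for Parp12 was lost without wild-type-labelled library 1 (edgeR adjusted p = 0.0751), without wild-type-labelled library 2 (0.069) and without null-labelled library 3 (0.0618).

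All 6 interferon-inducible GTPases, which attack the vacuoles of intracellular pathogens, were lower, by 3.49-fold to 72.5-fold. Gbp3 was at 37.6, 44.2 and 31.5 CPM against 0.512, 0.642 and 0.426 CPM (log2 fold change -6.14, SE 0.13). Gbp7, beside it on chromosome 3, was at 28.9, 29.7 and 22.8 CPM against 0.512, 0.292 and 0.320 CPM (-6.14, SE 0.15). Irgm2 was at 29.8, 26.4 and 18.7 CPM against 0.564, 1.05 and 0.586 CPM (-5.11, SE 0.41; edgeR adjusted p = 1.32e-04). The other 3 were Igtp (20.9 against 1.39 CPM), Gbp2 (32.1 against 3.70 CPM) and Irgm1 (55.9 against 16.0 CPM). Igtp and Irgm2 are annotated with 162 exonic bases in common on 1 strand, and 11.6% of the 51-base stretches of Igtp occur in Irgm2.

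The remaining 5 inducible genes were all lower. Ifi44, an antiviral protein gene, fell furthest of the genes with counts in both groups: 1571, 1126 and 955 reads against 3, 4 and 4, or a mean of 63.8 against 0.2002 CPM (log2 fold change -8.28, SE 0.49; edgeR adjusted p = 1.12e-04). Rtp4, a chaperone of membrane receptors, was at 45.3, 49.4 and 34.7 CPM against 0.717, 0.409 and 0.320 CPM (-6.44, SE 0.29). Xaf1, a pro-apoptotic factor, was at 17.7, 18.4 and 12.8 CPM against 0.615, 0.584 and 0.533 CPM (-4.80, SE 0.16). Ifi27 (59.0 against 20.7 CPM) and Ifi35 (35.7 against 19.6 CPM) fell less, with log2 fold changes of -1.51 and -0.86. Ifi35 shares 16.8% of its exonic bases with an opposite-strand gene model.

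**Figure D3:**
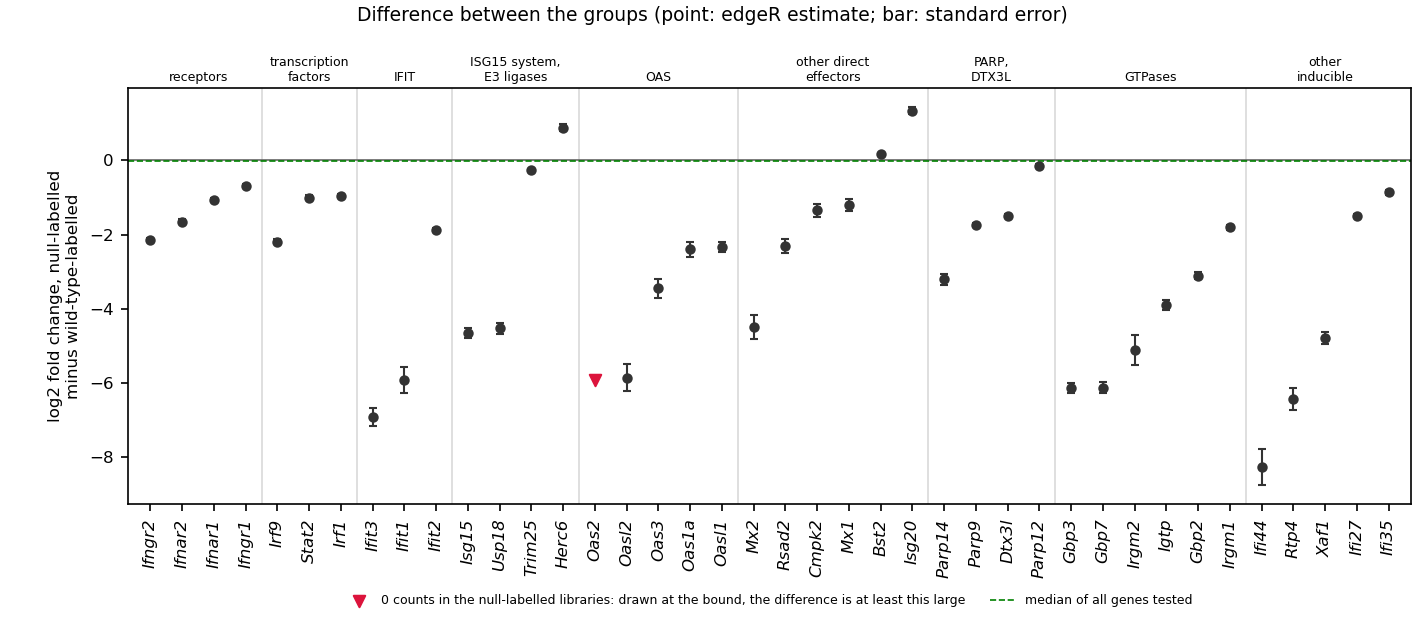
Log2 fold change (null-labelled minus wild-type-labelled) of the 40 genes with its standard error, by role; the triangle places Oas2 at its lower bound, and the dashed line is the median of all genes tested, -0.02. Points range from -8.28 for Ifi44 to 1.34 for Isg20, and every role except the ISG15 system and the other direct effectors lies wholly below 0.

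The wild-type-labelled libraries differed from each other in these genes more than the null-labelled ones did. Over the 40 genes the median CV was 15.8% in the wild-type-labelled group, beside 4.25% for all tested genes with at least 30 counts. In the null-labelled group it was 5.81% over the 32 genes with at least 30 counts, beside 4.34% for all tested genes. A CV above 2 times the counting CV was found in 28 of the 40 genes (70.0%) in the wild-type-labelled group, beside 6.59% of all genes, and in 0 of 32 in the null-labelled group, beside 7.83%. The counting CV itself had a median of 3.83% in the wild-type-labelled and 6.56% in the null-labelled group. Low counts therefore make this limit harder to pass in the null-labelled group, for instance for Isg15 with a counting CV of 17.4% there. In the 25 genes with at least 100 counts in both groups, the wild-type-labelled CV was the larger in 18; the 7 others were Ifnar2, Ifngr1, Ifngr2, Ifit2, Herc6, Parp14 and Ifi35. The larger spread was known from earlier work on these files, and 3 libraries a group do not carry a test of it.

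**Figure D4:**
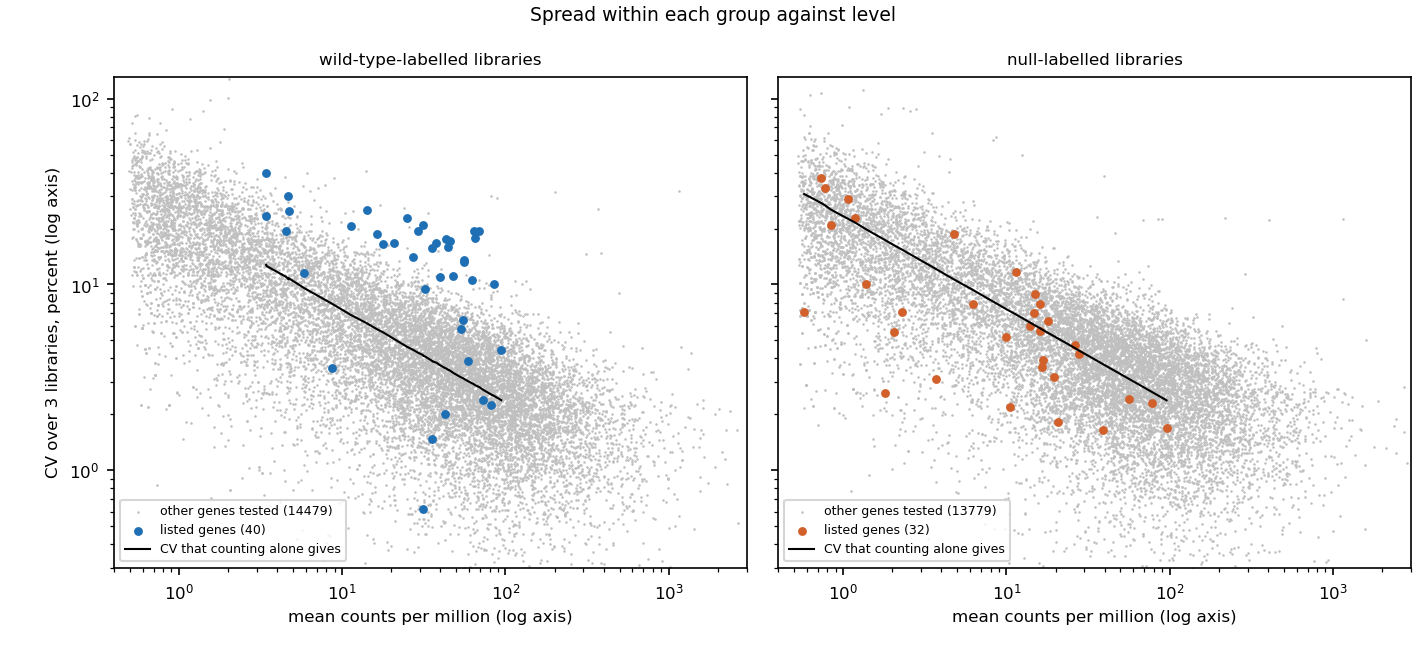
CV over the 3 libraries of a group (percent) against mean CPM, both on log axes, for all genes with at least 30 counts in the group (grey) and the listed genes (coloured); the black line is the CV that counting alone gives. Of the listed genes, 28 of 40 lie above 2 times the counting CV on the left (wild-type-labelled) and 0 of 32 on the right (null-labelled). The median counting CV of these genes is 3.83% on the left and 6.56% on the right, so the limit is higher on the right.

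Most of this spread lay in 1 library. Wild-type-labelled library 3 was the lowest of its group in 38 of the 40 genes, beside 32.6% of all genes tested, and in all 36 interferon-stimulated genes without the receptors. Its level was a median of 77.9% of the mean of libraries 1 and 2, and 76.6% without the receptors. The median over all genes with 30 counts was a log2 ratio to the group mean of 0.00, a value that the scaling of the libraries largely sets in advance. The 4 receptors kept 96.7% to 103%. The dip was largest in Oas2 (52.8%), Mx1 (57.6%) and Ifit3 (62.2%), and small in Ifi35, Herc6, Ifi27, Trim25, Ifit2 and Irf1, whose levels in library 3 were 90.6% to 97.8% (Ifi35 varied by a CV of 1.47%). Wild-type-labelled library 2 was the highest in 27 genes and library 1 in 12. The 3 genes that were higher in the null-labelled group shared the dip: library 3 stood at 81.9% for Isg20, 84.3% for Bst2 and 94.3% for Herc6. No null-labelled library stood apart in this way, with median log2 shifts of -0.007, 0.027 and -0.007 from the group mean, against 0.057, 0.13 and -0.25 in the wild-type-labelled libraries.

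**Figure D5:**
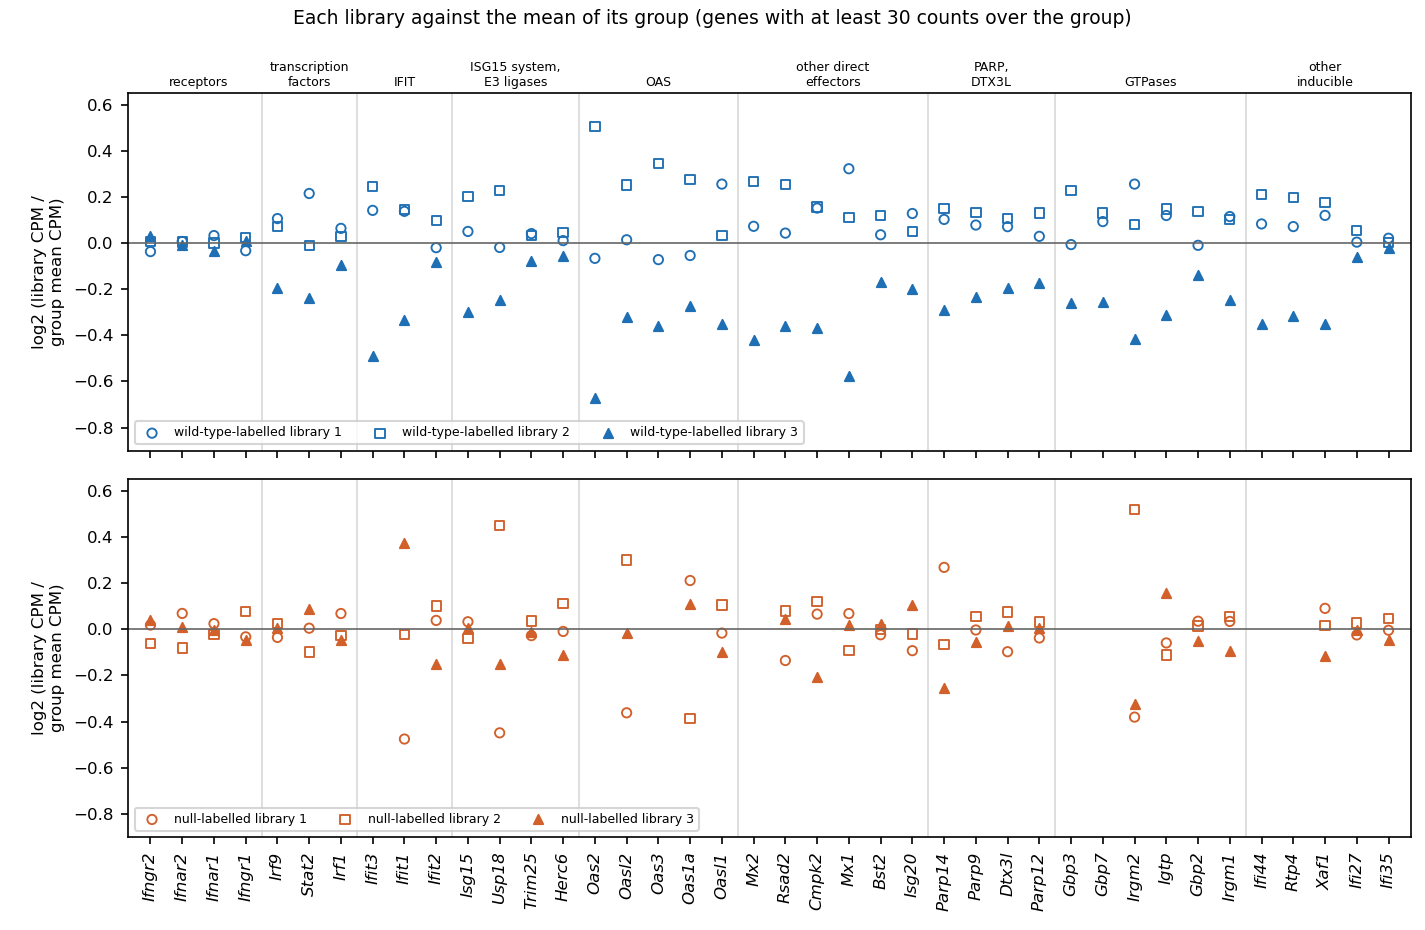
Log2 ratio of each library to the mean of its group for the listed genes with at least 30 counts over the group, wild-type-labelled above and null-labelled below. Filled triangles of wild-type-labelled library 3 lie below 0 in 38 of the 40 genes with a median of -0.25, whereas the receptors sit close to 0 and the null-labelled libraries show no common order.

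By the median over the 40 genes, the dip was small beside the difference between groups. It was not small for Parp12 and Bst2, with group log2 fold changes of -0.15 and 0.17. Their levels in library 3 were 83.8% and 84.3% of the mean of libraries 1 and 2. Without wild-type-labelled library 3 the median log2 fold change was -2.38 in place of -2.25, with 37 genes lower and 3 higher. The adjusted p of a gene did not follow its fold: Ifi44, Ifit1, Oasl2 and Irgm2 fell by over 30-fold with wild-type-labelled CVs of 17.8% to 22.8% and had edgeR adjusted p-values of 1.12e-04 to 1.32e-04, whereas Ifnar2, with a CV of 0.621%, fell 3.14-fold with 1.32e-117. Across the 40 genes the wild-type-labelled CV and the log2 fold change were related by a Spearman rho of -0.65 and a Pearson r of -0.64; these genes share libraries and depth, and the values are a description.

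Ranked by CV in the wild-type-labelled group, 10875 genes reached a mean of 5 CPM there, and the 50 with the largest CV held 7 of the 35 listed genes ranked and 5 of 82 other genes from the interferon lists. The same ranking in the null-labelled group held 0 and 1. At 20 CPM or more, a level chosen after seeing the data, the 50 widest genes held 16 listed and 5 other interferon genes in the wild-type-labelled group and 0 and 0 in the null-labelled group. The first 10 at 5 CPM were Gm12504, Gm9009, Gm29216, Gm28437, Gm11512, Uba7, Apod, CT010467.1, Mir6236 and Gm15564, of which only Uba7, the ISG15-activating enzyme, is on an interferon list. Other values that differed between libraries are given beside this order, in which wild-type-labelled library 2 was mostly the highest and library 3 the lowest. Total counts were lowest in wild-type-labelled library 2 (15598566) and highest in library 1 (23681718), with library 3 between them (19535503). CT010467.1 was at 764, 1232 and 1491 CPM in wild-type-labelled libraries 1 to 3 and at 1405, 1180 and 884 CPM in the null-labelled ones. The summed fibroblast markers were 14960, 15410 and 15030 CPM. Ly6a (79.3, 91.3 and 68.4 CPM) and Gm10925 (27.5, 29.4 and 19.6 CPM) also had the interferon genes' order 2, 1, 3. Tcf4 had it too (316.4, 317.2 and 305.5 CPM), but libraries 1 and 2 were near level there beside a counting CV of 1.31%. These genes were singled out after their values were seen. Ly6a and Gm10925 stand on none of the interferon lists, which does not place them outside the response. The part of these values in the dip was not tested.

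The interferon genes themselves had almost no reads: of 12 ligands, 8 had 0 counts in all 6 libraries, which allows up to 0.127 to 0.192 CPM in a library. Ifnb1, interferon beta, was counted 5, 1 and 0 times under the wild-type label and 0, 1 and 0 times under the null label, and no ligand was tested. Markers of other cells that such cultures could hold were summed as well. Siglech, a marker of plasmacytoid dendritic cells, had 0 counts in all 6 libraries. The list of 6 markers of these cells summed to 382 to 410 CPM against 212 to 220 CPM, mostly from Tcf4 and Bst2. Of its 3 tested genes only Tcf4 was lower (313 against 108 CPM); Bst2 was higher, and Irf8 was also higher (0.620 against 12.3 CPM, log2 fold change 4.28). The 12 macrophage markers summed to 19.6 to 21.8 CPM against 11.3 to 11.6 CPM, Cd14 the largest (16.1 against 4.84 CPM), with Adgre1 at 0 in the wild-type-labelled and Tyrobp at 0 in the null-labelled libraries. Of the 4 tested, Cd14 and Cd68 were lower, while Csf1r (16 against 56 reads, log2 fold change 1.84) and Lyz2 (2 against 152 reads, 6.05) were higher. The 9 epithelial markers summed to 106 to 110 CPM against 384 to 410 CPM, nearly all Krt8, whereas Krt18, the other one tested, was lower (1.19 against 0.289 CPM, log2 fold change -2.03). The 8 endothelial markers summed to 1.89 to 2.67 CPM against 2.87 to 3.47 CPM, and of the 2 tested Pecam1 was higher (54 against 120 reads) and Cdh5 lower (45 against 11 reads). The part of these cells in the results was not tested.

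Of the 14 signal transduction and feedback genes tested, 7 fell and 7 rose (median 0.13 on the log2 scale), beside 41.1% lower and 38.1% higher over all genes tested. In this list and those that follow, the genes named have an average log2 CPM of at least 1 unless stated. Among those that fell were the inhibitor Socs1 (23.6 against 11.3 CPM, -1.05) and Il10rb. The kinase Jak1 was near level (268 against 248 CPM, -0.11). Irf2bp2, a co-repressor partner of IRF2 (0.95), the phosphatase Ptpn1 (0.72) and the kinase Jak2 (0.57) were the most raised.

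Of 14 sensors of foreign nucleic acid and their factors, 9 fell and 4 rose, beside 41.1% and 38.1% of all genes tested, and the median log2 difference was -1.33. Irf7, the factor that amplifies interferon production, had 593, 446 and 327 reads under the wild-type label against 25, 11 and 17 under the null label (-4.63, SE 0.45). The RNA sensors Dhx58 (19.0 against 2.40 CPM, -2.98) and Ifih1 (30.9 against 4.32 CPM, -2.83) followed at that level; below it, Zbp1, another nucleic acid sensor, had 185 reads against 10 (-4.11). Higher were the kinases Ikbke (0.83) and Tbk1 (0.78) and their substrate Irf3 (0.71). Tlr3 did not pass the test (4.68 against 3.85 CPM; edgeR adjusted p = 0.121).

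Of the 88 other interferon-stimulated genes, 74 were tested, with a median log2 fold change of -0.84. Among these 57 were lower, 12 higher and 5 did not pass, beside 41.1% lower and 38.1% higher over all genes tested. Besides Ifit3b, the largest falls were Mndal, with 448 reads against 2 (a ratio of 215, 95% counting interval 59.3 to 1780), and Iigp1, with 243 against 1 (234, interval 41.6 to 9270); Plac8, at a lower level, had 73 reads against 0. The most raised were Ifi30, a lysosomal reductase of antigen processing (33.5 against 118 CPM, 1.82), Parp11 (0.69) and the immunoproteasome subunit Psmb9 (0.67), while Cd274, below that level, had 64 reads against 99 (0.69). Wild-type-labelled library 3 was below its group mean in 66 of the 74, beside 7219 of all 14519 genes with at least 30 counts, with a median log2 shift of -0.13.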

How the data were processed

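RNA from 6 samples of mouse embryo cells was sequenced as single reads of 51 bases. Per the file headers, the authors counted reads per Ensembl gene with featureCounts 1.6.2 on GRCm38; the submitters' processing notes name Trimmomatic 0.33, Subread 1.6.2 and featureCounts 1.2.6. The deposited values are whole-number counts; no strand option stands in the header, and the header command has no option to count reads that overlap more than 1 gene. Gene symbols were matched for 98.9% of 46983 genes. Counts were tested with edgeR 4.0.16 (R 4.3.3; filterByExpr, TMM, quasi-likelihood F-test, Benjamini-Hochberg over 15199 genes, threshold 0.05), and CPM use TMM-scaled totals. The standard error is the log2 fold change divided by the square root of F. The fit was tested on simulated counts with the same dispersion for every gene and few genes changed, unlike these data. DESeq2 1.42.0 and limma-voom 3.58.1 were alternatives. The counting CV is the Poisson expectation. Motifs were searched in RefSeq promoters. Protein sequences were not used here; shared 51-base stretches of GENCODE M21 transcripts took the place of the planned protein identity. The genes and lists were chosen with earlier results of these data known. Values per library are given for receptors, transcription factors, genes that were higher and the 3 largest changes of each role whose average log2 CPM reached 1; Parp12, Oas2, Mx1, Mx2, Trim25 and further members of a role are named to account for all 40.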

Additional observations from a re-analysis of the deposited data

How the results depend on the processing

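Over 13 other settings (scaling, tool, filter, threshold, replicate block and leaving out each library), 515 of 520 values of the 40 genes kept direction and side of the threshold, 5 lost the call (Bst2 in 2 settings, Parp12 in 3) and 0 changed direction. The median log2 fold change ranged from -2.38 to -2.17 when each library was left out in turn. Replicate numbers did not pair the samples: same-numbered deviations correlated at 0.0123, -0.0028 and 0.0181, and with the replicate block 37 genes were lower and 3 higher. The median null-labelled CV was 4.72% over the 25 genes with at least 100 counts, in place of 5.81%, and 16 in place of 7 listed genes were among the 50 widest genes of the wild-type-labelled group at 20 CPM or more. Depth limits the 12 genes under 1 CPM in the null-labelled group, whose folds rest on few reads.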
